A study of Mus musculus with 6 samples.

Results

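The genes described are the nuclear-encoded subunits of respiratory complexes II, III, IV and V, with cytochrome c, in mouse heart ventricle. They were chosen by symbol: every gene whose symbol begins with Uqcr, with Cox followed by a digit from 4 to 8, or with Atp5, together with Sdha, Sdhb, Sdhc, Sdhd, Cyc1 and Cycs. The rule used no measured value, though it was chosen with earlier results of these data known. It gave 48 genes of the 18181 in the expression table. Of these, 4 belong to complex II, 9 to complex III, 1 is cytochrome c, 17 belong to complex IV and 17 to complex V. The count for complex IV includes Cox7a2l, which encodes a factor that joins complexes III and IV into supercomplexes and is not a subunit of cytochrome c oxidase itself.

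Ventricle tissue was taken from C57BL6 mice of 2 ages, 6 to 8 weeks (young) and 24 to 26 months (aged), with 3 libraries per age. All animals had the same background genotype and no treatment is recorded in the labels. The sex of the animals and the number of mice behind each tissue sample are not given, so p-values measure the spread between these samples. Messenger RNA was selected on oligo(dT) beads and sequenced as paired 100-base reads on a BGISEQ-500. Values are FPKM, a fragment count divided by transcript length and library total, so that levels of different genes can be compared per length.

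The respiratory chain oxidises NADH and succinate in the inner mitochondrial membrane, pumps protons, and drives ATP synthase with the resulting gradient. Complex II (succinate dehydrogenase) passes electrons from the citric acid cycle to ubiquinone, complex III passes them to cytochrome c, complex IV (cytochrome c oxidase) passes them to oxygen, and complex V makes ATP. The catalytic core of complex IV is encoded in mitochondrial DNA and its small nuclear subunits surround that core. Several of these small subunits exist as a form found mainly in heart and skeletal muscle (Cox6a2, Cox7a1, Cox8b) and a form found in most tissues (Cox6a1, Cox7a2, Cox8a), and the muscle forms replace the widespread forms as the heart matures after birth. The mitochondrially encoded subunits were not analysed here.

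The summed FPKM of all genes ranged from 529258 to 566499 per library, and 15750 to 16232 genes were above 0. Myl2, the ventricular myosin light chain, stood at 11761 ± 530 FPKM (SD, n = 3) in young and 17061 ± 1127 in aged libraries, while Myl7, the atrial light chain, did not exceed 1.45 FPKM in any library. Transcripts of 6 keratins of stratified epithelium summed to 271 and 438 FPKM in aged replicates 1 and 2, to 0 in aged replicate 3, and to at most 0.22 in the young libraries. For each called gene named, the comparison is also given without both, that is against aged replicate 3 alone, whose spread is then assumed to equal that of the young libraries. The 5 erythroid markers were all lower in aged tissue, summing to 15368 to 23589 FPKM in young and 9517 to 10921 in aged libraries.

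Promoter sequences are shown for the 4 called isoform genes that have an entry in the RefSeq promoter table (GRCm38.p6), a pair of muscle forms and a pair of widespread forms. Cox6a2 and Cox4i2 have no entry there. Each is the 250 bases before the annotated start, written 5′ to 3′ on the strand of the gene, with letters matching a searched motif in capitals. Cox7a1 lies at chr7:30183921-30184170 on the plus strand, Cox8b at chr7:140900447-140900696 on the minus strand, Cox6a1 at chr5:115348959-115349208 on the minus strand, and Cox8a at chr19:7217617-7217866 on the minus strand.
Cox7a1 (muscle form): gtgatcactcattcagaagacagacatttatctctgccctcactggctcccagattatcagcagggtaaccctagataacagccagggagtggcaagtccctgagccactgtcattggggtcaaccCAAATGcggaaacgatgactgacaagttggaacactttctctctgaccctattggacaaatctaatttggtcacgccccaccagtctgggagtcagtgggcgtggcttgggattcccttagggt
Cox8b (muscle form): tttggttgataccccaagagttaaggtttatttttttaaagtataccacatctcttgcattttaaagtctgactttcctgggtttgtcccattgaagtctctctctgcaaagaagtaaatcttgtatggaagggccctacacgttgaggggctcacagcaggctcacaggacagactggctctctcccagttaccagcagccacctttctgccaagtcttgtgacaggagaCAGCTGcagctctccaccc
Cox6a1 (widespread form): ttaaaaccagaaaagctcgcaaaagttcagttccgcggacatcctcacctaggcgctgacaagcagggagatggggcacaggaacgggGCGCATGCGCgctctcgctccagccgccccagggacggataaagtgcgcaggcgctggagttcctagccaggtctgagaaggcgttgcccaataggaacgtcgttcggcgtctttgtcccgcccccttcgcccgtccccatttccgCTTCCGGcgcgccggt
Cox8a (widespread form): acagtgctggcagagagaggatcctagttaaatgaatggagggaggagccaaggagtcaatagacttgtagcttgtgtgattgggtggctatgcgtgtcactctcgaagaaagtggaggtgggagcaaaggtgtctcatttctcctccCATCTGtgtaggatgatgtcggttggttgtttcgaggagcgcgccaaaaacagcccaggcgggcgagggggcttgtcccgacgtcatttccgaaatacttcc

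The motifs searched on both strands were AAGGTCA, the core of the element bound by oestrogen-related receptors, GCGCATG, one arm of the palindrome bound by NRF1, CCGGAAG, the core bound by ETS factors such as GABP, and CANNTG, the E-box. In the Cox6a1 promoter GCGCATG occurred on each strand, the matches overlapping between positions -162 and -153 from the start, and CCGGAAG lay on the reverse strand at -16 to -10. The promoters of Cox7a1, Cox8b and Cox8a each held 1 E-box, beginning at positions -124, -19 and -102, and no match to the other motifs. Over the whole gene set, 37 genes had an entry and these gave 40 promoter windows. GCGCATG was in 7 of the 40 windows, or 17.5%, against 3.24% of the 32851 windows in the table. CCGGAAG was in 9 (22.5% against 6.91%), AAGGTCA in 2 (5% against 4.08%) and the E-box in 24 (60% against 66.2%). These matches describe letters in a window and no test was made of them.

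The subunit genes were among the most abundant transcripts of the ventricle. Of the 48, 45 had a mean over 100 FPKM and 22 were over 1000, a level that only 66 tested genes reached. Cox6a2 was the most abundant of them and ranked 14 among all genes by mean FPKM. The genes lie on 19 chromosomes and 6 are on chromosome 7. The 47 of them that were tested are short, with a median transcript length of 731 bases against 2852 for all tested genes. Of these 47, 44 are shorter than the median tested gene. Their median GC content was 50.6%, close to the 50.7% of all tested genes. A mean of at least 1 FPKM, the level needed to enter the test, was reached by 47 of the 48. The exception was Cox7b2, a testis form, which was listed at 0 in all young libraries and in aged replicate 2 and at 0.79 and 0.25 FPKM in aged replicates 1 and 3.

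Few of the subunit genes were called as differing with age, and those called were isoforms of complex IV. The muscle forms Cox6a2, Cox7a1 and Cox8b were higher in aged ventricle, and Cox6a1, Cox8a and Cox4i2 were lower, at an adjusted p under 0.05 in limma on log2(FPKM + 1). The other 41 tested subunit genes, including all of complexes II, III and V and cytochrome c, were not called. These 6 calls are 12.8% of the 47 tested, where 26.4% of all 11860 tested genes were called, 9.32% higher and 17.1% lower. The 3 libraries of one age did not overlap those of the other for 11 subunit genes, 8 above and 3 below in aged tissue, or 23.4%, against 43% of all tested genes (15.2% above and 27.9% below). Differences of the uncalled genes ran from -0.10 to 0.23 on the log2 scale, 31 of the 41 were within 0.1 of 0, and 5 had an unadjusted p under 0.05 (Sdhb, Cox6c, Cox7a2l, Atp5c1 and Atp5e). The median difference was 0.03 over the tested subunit genes and -0.06 over all tested genes. The counts depended on scaling. After median-of-ratios scaling 8 were higher and 0 lower, and the higher ones included Sdhb, Atp5c1 and Atp5g2. A spline on transcript length and GC content was also fitted to each library and removed (the length and GC trend). After that 1 was higher and 9 lower, and the lower ones included Uqcrh, Atp5k and Atp5mpl. Calls outside complex IV thus appeared under these scalings.

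**Figure D1:**
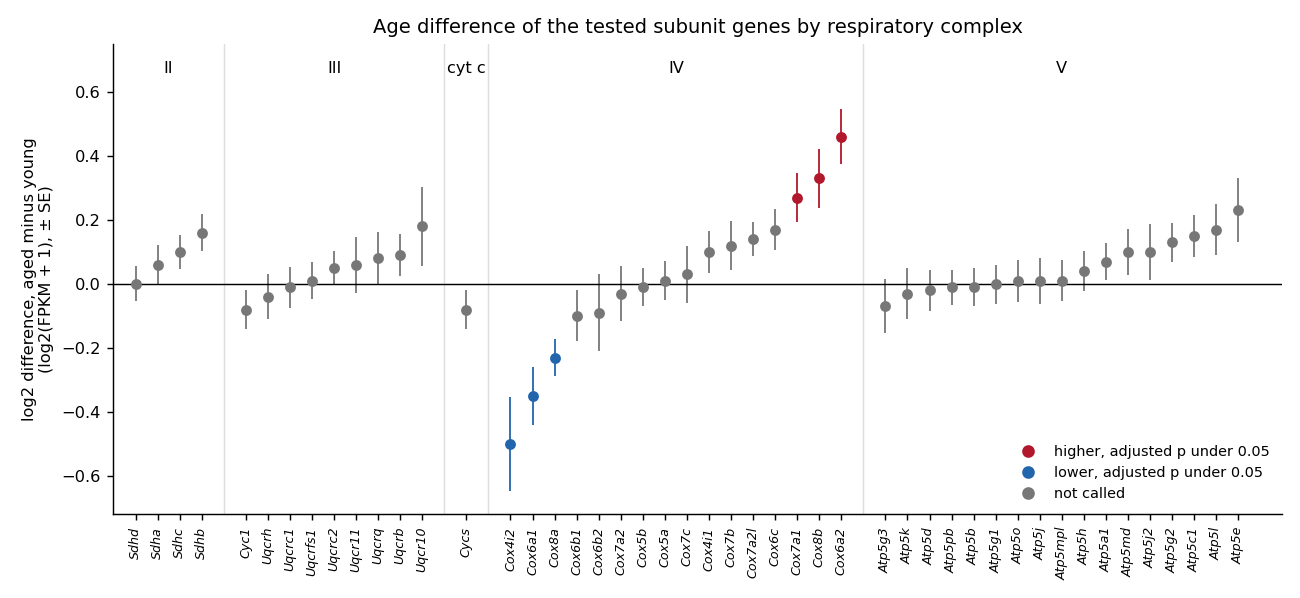
Difference between aged and young ventricle (log2(FPKM + 1), aged minus young) for the 47 tested subunit genes, ordered by complex, with vertical lines of ± 1 standard error from limma. Red points were called higher and blue points lower at an adjusted p under 0.05; all 6 lie in complex IV and the grey, uncalled genes lie between -0.10 and 0.23.

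Cox6a2 encodes the muscle form of subunit VIa, which lies at the contact between the monomers of cytochrome c oxidase, and sits at chr7:128205435-128206366 (GRCm38). Its FPKM was 3845, 3822 and 3519 in young replicates 1, 2 and 3 and 5808, 4806 and 4843 in the aged ones. All aged libraries stood above all young ones, and aged replicate 1 was the highest. The mean rose from 3729 ± 182 to 5152 ± 568 (SD, n = 3), 1.38-fold, a log2 difference of 0.46 with a standard error of 0.0854 and an adjusted p of 0.00529 in limma. Leaving out any single library kept the call (adjusted p from 0.00747 to 0.0307), as did comparing the young libraries with aged replicate 3 alone (0.38, adjusted p = 0.0441).

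Cox6a1, the form of subunit VIa found in most tissues (chr5:115345652-115348958), moved the other way. Its FPKM was 273, 225 and 233 in young and 199.7, 171 and 200.3 in aged libraries. The highest aged library stayed below the lowest young one. The mean fell from 244 ± 25.6 to 190 ± 16.8, 1.28-fold lower in aged tissue (log2 difference -0.35, standard error 0.0904, adjusted p = 0.0204). Without aged replicate 2 the difference was -0.28 and no longer called (adjusted p = 0.0611), nor was it against aged replicate 3 alone (-0.28, adjusted p = 0.177).

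Within each library the 2 forms can be set against each other, so that a factor common to the whole library largely cancels. The ratio of Cox6a2 to Cox6a1 was 14.1, 17 and 15.1 in young and 29.1, 28.1 and 24.2 in aged libraries. Every aged ratio exceeded every young ratio. The mean went from 15.4 ± 1.48 to 27.1 ± 2.6, a 1.76-fold difference or 0.82 on the log2 scale. The two-sided exact permutation p was 0.1, the smallest that 3 libraries against 3 can give, and 0.175 after Benjamini-Hochberg adjustment over the 7 isoform pairs compared. The muscle form made up 93.4% to 94.4% of the summed FPKM of the pair in young and 96% to 96.7% in aged tissue, so the widespread form was the minor one at both ages.

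Cox8b and Cox8a showed the same arrangement for subunit VIII, a single-span membrane subunit. Cox8b, the muscle form (chr7:140898942-140900446), stood at 1599, 1692 and 1533 FPKM in young and 2301, 1779 and 2021 in aged libraries. The groups did not overlap, though aged replicate 2 was close to young replicate 2. The mean rose from 1608 ± 80 to 2033 ± 261, 1.26-fold (log2 difference 0.33, standard error 0.0925, adjusted p = 0.0288). The call was lost when young replicate 1, 2 or 3 or aged replicate 1 or 3 was left out (adjusted p from 0.05 to 0.11) or both aged replicates 1 and 2 (0.33, adjusted p = 0.0579), and the difference was 0.02 after removal of the length and GC trend.

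Cox8a, the widespread form (chr19:7215158-7217616), stood at 365, 339 and 339 FPKM in young and 310.4, 289 and 292 in aged libraries. All aged values were below all young ones. The mean fell from 348 ± 15 to 297 ± 11.6, 1.17-fold lower (log2 difference -0.23, standard error 0.058, adjusted p = 0.021). Leaving out young replicate 1 or 3 or aged replicate 2 or 3 ended the call, with adjusted p from 0.0535 to 0.0623, as did leaving out aged replicates 1 and 2 together (-0.25, adjusted p = 0.1). The Cox8b to Cox8a ratio was 4.38, 4.99 and 4.52 in young and 7.41, 6.16 and 6.91 in aged libraries, again without overlap. It went from 4.63 ± 0.318 to 6.83 ± 0.631, or 1.47-fold (log2 0.56, exact permutation p = 0.1, 0.175 adjusted over the 7 pairs).

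Subunit VIIa differed from subunits VIa and VIII in that the muscle form was called and the widespread form was not. This contrast reversed with the length and GC trend removed. Cox7a1, the muscle form (chr7:30184171-30186030), had 2052, 2212 and 1829 FPKM in young and 2394, 2527 and 2413 in aged libraries. The aged libraries were close together and all above the young ones. The mean rose from 2031 ± 193 to 2445 ± 72.2, 1.2-fold (log2 difference 0.27, standard error 0.0763, adjusted p = 0.0297). The call was lost without young replicate 1 or 3 or without aged replicate 1, 2 or 3 (adjusted p from 0.0513 to 0.118), and against aged replicate 3 alone (0.25, adjusted p = 0.196). With the length and GC trend removed the difference was -0.02, and it was 0.13 (not called) after quantile normalization.

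Cox7a2, the widespread form of subunit VIIa (chr9:79755241-79771422), had 429, 453 and 429 FPKM in young and 492, 418 and 385 in aged libraries. The aged values lay on both sides of the young ones. The log2 difference was -0.03 with an adjusted p of 0.858. With the length and GC trend removed Cox7a2 was called lower (-0.19, adjusted p = 0.0452 in limma). The Cox7a1 to Cox7a2 ratio was 4.79, 4.88 and 4.26 in young and 4.87, 6.05 and 6.27 in aged libraries, and aged replicate 1 fell within the young range. Its means were 4.64 ± 0.333 and 5.73 ± 0.753 (log2 0.30, exact permutation p = 0.2), and the log2 difference was 0.17 with the length and GC trend removed. Whether the age effect on this ratio differs from that on the other pairs was not tested.

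**Figure D2:**
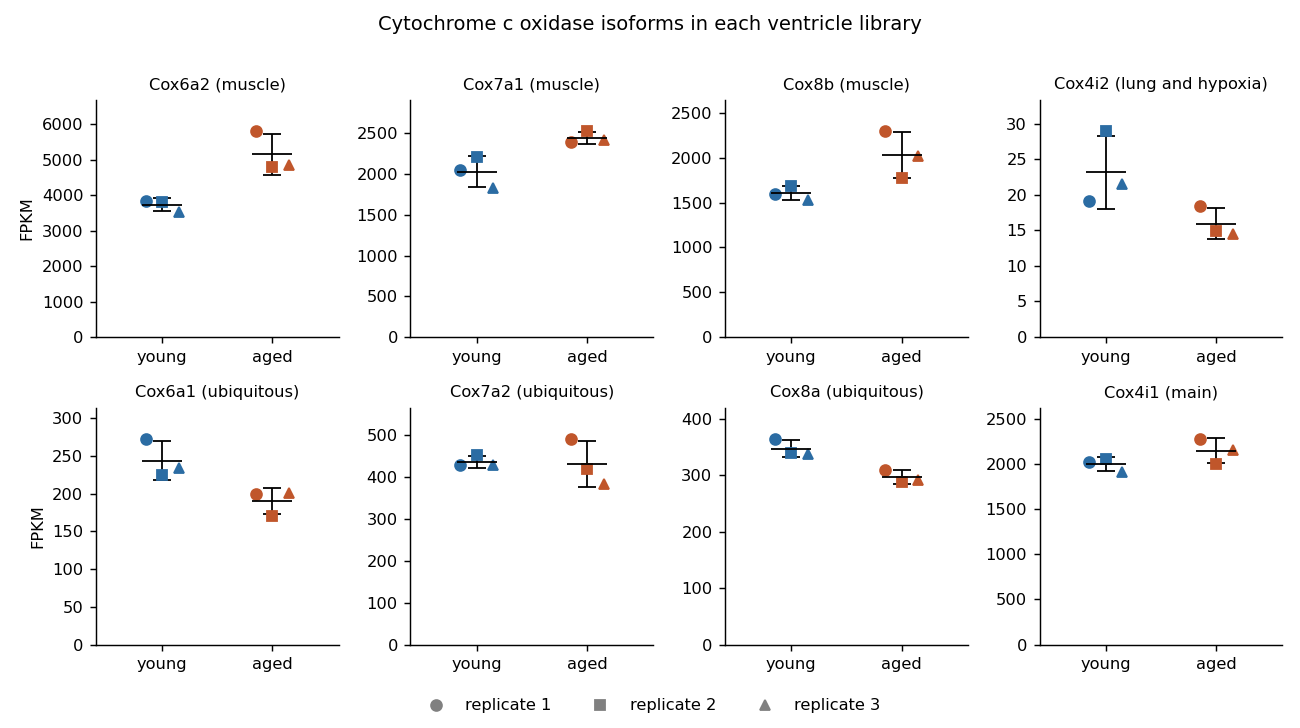
FPKM of 8 complex IV isoform genes in each library, young in blue and aged in orange, with circles, squares and triangles for replicates 1, 2 and 3 and bars at the mean ± SD (n = 3). Cox6a2, Cox7a1 and Cox8b are higher in all aged libraries, Cox6a1, Cox8a and Cox4i2 are lower in all of them, and Cox7a2 and Cox4i1 overlap.

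Some markers of cell types also differed with age. Among all tested genes, 9.32% were called higher and 17.1% lower. Of 7 cardiomyocyte markers 3 were higher in aged tissue and none lower (Myl2, Tnnt2 and Tnni3, log2 0.54, 0.32 and 0.24). The uncalled ones were Pln at 0.14, Ryr2 at -0.02, Myh6 at -0.12 and Actc1 at -0.14, the last with all aged libraries below the young ones. The 7 summed to 42559 to 46225 FPKM in young and 48854 to 52490 in aged libraries, and most of that difference was Myl2, whose mean went from 11761 to 17061. Markers of other cells were called only in the lower direction: 3 of 5 endothelial (Pecam1, Cdh5 and Tie1), 2 of 5 mural (Pdgfrb and Rgs5), 3 of 5 fibroblast and 1 of 4 macrophage markers. Those not called included endothelial Kdr and Emcn at -0.03 each and mural Myh11 at -0.25, Kcnj8 at -0.14 and Abcc9 at 0.12. Fibroblast Pdgfra at -0.09 and Dcn at 0.12 were not called either. Nor were macrophage Adgre1 at -0.30, C1qa at -0.07 and Cd68 at 0.01. Of these uncalled markers, Myh11 and Adgre1 also had all aged libraries below all young ones, as had 27.9% of all tested genes. The endothelial sum was 328 to 397 FPKM in young and 262 to 278 in aged libraries. Single libraries decided a pair of these calls: Tnni3 was not called without any one young replicate or aged replicate 2, nor Rgs5 without young replicate 2 or 3 or aged replicate 1 or 3. Against aged replicate 3 alone Myl2, Cdh5 and Tie1 stayed called, and Tnnt2, Tnni3, Pecam1, Pdgfrb and Rgs5 did not. The part of these shifts in the isoform differences was not tested, and in bulk tissue fewer cells of a type and less RNA per cell cannot be told apart. The 9 fast skeletal muscle markers summed to 5.32 to 6.84 FPKM in young and 4.91 to 10.7 in aged libraries. Of these only 2, Tnni2 and Mylpf, reached the level needed for the test, and neither was called. Below that level, Tnnt3 (mean 0.407 in young and 1.57 in aged), Myh1 and Atp2a1 had all aged libraries above all young ones. The others overlapped.

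Cox4i2, the form of subunit IV known from lung and from the response to low oxygen, was a minor transcript in ventricle (chr2:152753916-152765039). It had 19.1, 29.0 and 21.5 FPKM in young and 18.5, 14.9 and 14.55 in aged libraries. Aged replicate 1 stood just below young replicate 1, and young replicate 2 was the highest. The mean fell from 23.2 ± 5.14 to 16 ± 2.17, 1.45-fold lower (log2 difference -0.50, standard error 0.146, adjusted p = 0.0348). Leaving out young replicate 2 or 3 or aged replicate 2 or 3 ended the call, with adjusted p from 0.0722 to 0.0971, and against aged replicate 3 alone the difference was -0.62 (adjusted p = 0.111).

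The main form of subunit IV, Cox4i1, was far more abundant and was not called. It had 2023, 2056 and 1914 FPKM in young and 2277, 2003 and 2149 in aged libraries, with overlap (log2 0.10, adjusted p = 0.302). On average Cox4i1 exceeded Cox4i2 88.6-fold in young and 135-fold in aged tissue, taken from the mean ratios. The Cox4i2 to Cox4i1 ratio was 0.00943, 0.0141 and 0.0112 in young and 0.00811, 0.00742 and 0.00677 in aged libraries, without overlap (log2 -0.60, exact permutation p = 0.1, 0.175 adjusted over the 7 pairs). Cox4i2 is known from pericytes, and the mural markers summed to 319 to 389 FPKM in young and 286 to 310 in aged libraries. Pdgfrb stood at -0.52 and Rgs5 at -0.35 on the log2 scale. The other mural markers were not called, with Myh11 at -0.25, Kcnj8 at -0.14 and Abcc9 at 0.12. The part of mural cells in the Cox4i2 result was not tested.

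**Figure D3:**
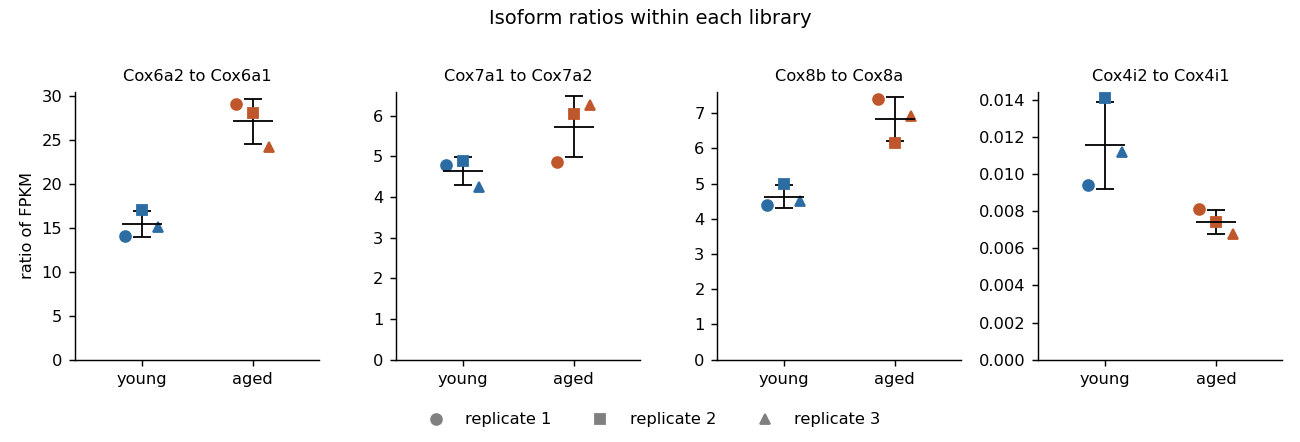
Ratio of FPKM between the forms of a complex IV subunit within each library, young in blue and aged in orange, with replicate symbols and bars at the mean ± SD (n = 3). The Cox6a2 to Cox6a1 ratio runs from 14.1 to 17 in young and from 24.2 to 29.1 in aged libraries, the Cox8b to Cox8a and Cox4i2 to Cox4i1 ratios also separate, and the Cox7a1 to Cox7a2 ratio overlaps.

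Subunit VIb, which faces the cytochrome c side of the enzyme, showed no call for either form. Cox6b1, the main form, had 1875, 2165 and 1972 FPKM in young and 2041, 1741 and 1839 in aged libraries (log2 -0.10, adjusted p = 0.403). Cox6b2, the testis form, had 3.27, 4.59 and 3.61 in young and 3.88, 3.39 and 3.22 in aged libraries (log2 -0.09, adjusted p = 0.604). Both overlapped between ages, and the ratio of Cox6b2 to Cox6b1 was 0.0019 at the young and 0.00187 at the aged mean (exact permutation p = 1). Cox6b1 was called lower after quantile normalization (-0.19, adjusted p = 0.033 in limma). With the length and GC trend removed, limma called both lower (Cox6b1 at -0.27, adjusted p = 0.0168, and Cox6b2 at -0.32, adjusted p = 0.0386).

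The complex IV subunits that have no paired isoform in the set differed little. Cox5a and Cox5b, on the matrix side, had means of 1256 and 1756 FPKM in young and 1263 and 1748 in aged libraries, and Cox7c went from 1555 ± 52.9 to 1598 ± 204. Cox6c had the largest difference of the 4: its values of 1540.2, 1557 and 1439 in young and 1795, 1713 and 1609.5 in aged libraries did not overlap, and its log2 difference of 0.17 missed the threshold (adjusted p = 0.0756). Cox7b, whose testis form is Cox7b2, went from 689 ± 23.2 to 749 ± 78.2 FPKM (log2 0.12, adjusted p = 0.303). Cox7a2l, the supercomplex factor, had 237, 256 and 248 FPKM in young and 277, 266 and 272 in aged libraries, also without overlap and not called (log2 0.14, adjusted p = 0.0963).

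No complex II gene was called, though all 4 differences were at or above 0. Under quantile normalization those of Sdha and Sdhd were -0.05 each. Sdha, the flavoprotein that oxidises succinate, had 529, 478 and 505 FPKM in young and 544, 532 and 502 in aged libraries, with overlap (log2 0.06, adjusted p = 0.487). Sdhb, the iron-sulphur subunit, had 779, 814 and 788 in young and 936, 868 and 859.7 in aged libraries. Its groups did not overlap and its difference of 0.16 (standard error 0.0571) came closest to the threshold of the 4 genes, with an adjusted p of 0.0682.

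The membrane anchors Sdhc and Sdhd bind ubiquinone and carry the haem. Sdhc had 452, 443 and 439.9 FPKM in young and 495, 469 and 464 in aged libraries. These did not overlap (log2 0.10, adjusted p = 0.215). Sdhd had 319.9, 327 and 327 in young and 339, 324 and 311 in aged libraries, the latter lying on both sides of the young ones (log2 0.00055, adjusted p = 0.995).

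None of the 9 complex III genes was called and none separated the ages. Cyc1, which carries the haem that reduces cytochrome c, had 720.4, 711 and 688 FPKM in young and 711, 627 and 673 in aged libraries (log2 -0.08, adjusted p = 0.394). After quantile normalization Cyc1 was called lower (-0.18, adjusted p = 0.0255 in limma). The core proteins Uqcrc1 and Uqcrc2 differed by -0.01 and 0.05 and the Rieske iron-sulphur protein Uqcrfs1 by 0.01 on the log2 scale. Uqcr11, a small accessory subunit and the most abundant of the complex, had 1350.3, 1399 and 1202 FPKM in young and 1511, 1241 and 1379 in aged libraries (log2 0.06, adjusted p = 0.634). Uqcrq, the ubiquinone-binding protein and the least abundant, had 457, 452 and 416 in young and 519, 422 and 461 in aged libraries (log2 0.08, adjusted p = 0.519). Aged replicate 1 was the highest library for both small subunits. The widest spread was that of Uqcr10, a small subunit near cytochrome c1, at 739 ± 59.1 in young and 847 ± 163 in aged libraries (log2 0.18, adjusted p = 0.306). Uqcrb and Uqcrh, the remaining accessory subunits, differed by 0.09 and -0.04.

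Cytochrome c, the soluble carrier between complexes III and IV, was encoded by Cycs in this set. Its FPKM was 371, 414 and 388 in young and 374, 381 and 354 in aged libraries. The groups overlapped (log2 -0.08, adjusted p = 0.374).

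None of the 17 complex V genes was called. Atp5b, the catalytic beta subunit, was the most abundant, with 3179.6, 2991 and 2949.7 FPKM in young and 3129, 2988 and 2948 in aged libraries. The libraries of the ages interleaved (log2 -0.01, adjusted p = 0.936). Its partner Atp5a1, the alpha subunit, went from 1887 ± 59.8 to 1987 ± 62.5 (log2 0.07, adjusted p = 0.376). In the central stalk, Atp5c1 (gamma) had 1120.4, 1083 and 1116 in young and 1330.0, 1233 and 1139.6 in aged libraries, without overlap and not called (log2 0.15, adjusted p = 0.122). Atp5e (epsilon) had the largest difference of the complex, 0.23 with a standard error of 0.1 and an adjusted p of 0.125, and its values of 717, 655 and 609.6 in young overlapped the aged values of 899.6, 700.0 and 732. Atp5d (delta) differed by -0.02. The peripheral stalk genes Atp5o, Atp5pb, Atp5h and Atp5j lay between -0.01 and 0.04. The membrane subunits Atp5k, Atp5j2, Atp5l, Atp5md and Atp5mpl lay between -0.03 and 0.17, with Atp5l at the upper end (adjusted p = 0.153).

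Subunit c, which forms the rotating ring, is made from 3 genes whose mature proteins are identical. Atp5g1 had 1985, 2148 and 2018 FPKM in young and 2049, 1974 and 2122 in aged libraries (log2 -0.0012, adjusted p = 0.99). Atp5g2, the least abundant complex V gene, had 423, 474 and 432 in young and 499.7, 478 and 472 in aged libraries (log2 0.13, adjusted p = 0.162). Atp5g3 had 1768, 1574 and 1702.5 in young and 1808, 1484 and 1535 in aged libraries (log2 -0.07, adjusted p = 0.595). For all 3 the ages overlapped. Atp5g2 made up 10.1% to 11.3% of their summed FPKM in young and 11.4% to 12.2% in aged libraries. The Atp5g1 to Atp5g2 ratio of 4.7, 4.53 and 4.67 in young and 4.1, 4.13 and 4.49 in aged libraries did not overlap (log2 -0.13, exact permutation p = 0.1, 0.175 adjusted over the 7 pairs), while the Atp5g1 to Atp5g3 ratio overlapped (exact permutation p = 0.7).

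Summed over its subunits, complex IV showed the largest ratio between the ages of the 4 complexes, with no test made of a sum. Its genes summed to 19439 ± 726 FPKM in young and 21922 ± 1612 in aged libraries, a ratio of 1.13, and the ranges of 18685 to 20134 and 20841 to 23774 did not overlap. Most of the rise lay in the muscle forms. The mean went from 3729 to 5152 for Cox6a2, from 2031 to 2445 for Cox7a1 and from 1608 to 2033 for Cox8b. The 4 complex IV genes without a paired isoform summed to 6079 ± 114 and 6315 ± 433, a ratio of 1.04. Complex II went from 2067 ± 11.1 to 2214 ± 90.3 (1.07), with ranges of 2059 to 2080 and 2137 to 2314 that did not overlap either. The sums were not divided by the library's total FPKM, on which such separation can depend. For complex II, young replicate 3 had 2059 of a total of 529258 and aged replicate 3 had 2137 of 554626. Complex III went from 7274 ± 220 to 7498 ± 556 (1.03) and complex V from 22112 ± 424 to 22828 ± 1311 (1.03). All 48 genes summed to 51283 ± 1373 in young and 54832 ± 3558 in aged libraries, and without Cox6a2, Cox7a1 and Cox8b the sums were 43916 ± 957 and 45201 ± 2799, a ratio of 1.03. The set made up 9.43% to 10.4% of all FPKM in a library.

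Aged replicate 1 stood apart from the other libraries in these genes. It was the highest of the 6 libraries for 35 of the 48, or 72.9%, where it was the highest for 14.1% of all tested genes. The pattern was not particular to them: the 38 genes with complex I symbols summed to 21413 FPKM in aged replicate 1. Their sums in the other libraries were 17857 to 19308. The median deviation of the subunit genes from their mean was 0.10 in aged replicate 1 and -0.05 to 0.01 in the other libraries on the log2 scale. Without it, Cox6a2 remained called (log2 0.37), as did Cox6a1, Cox8a and Cox4i2, while Cox7a1 and Cox8b did not (0.29 and 0.24).

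**Figure D4:**
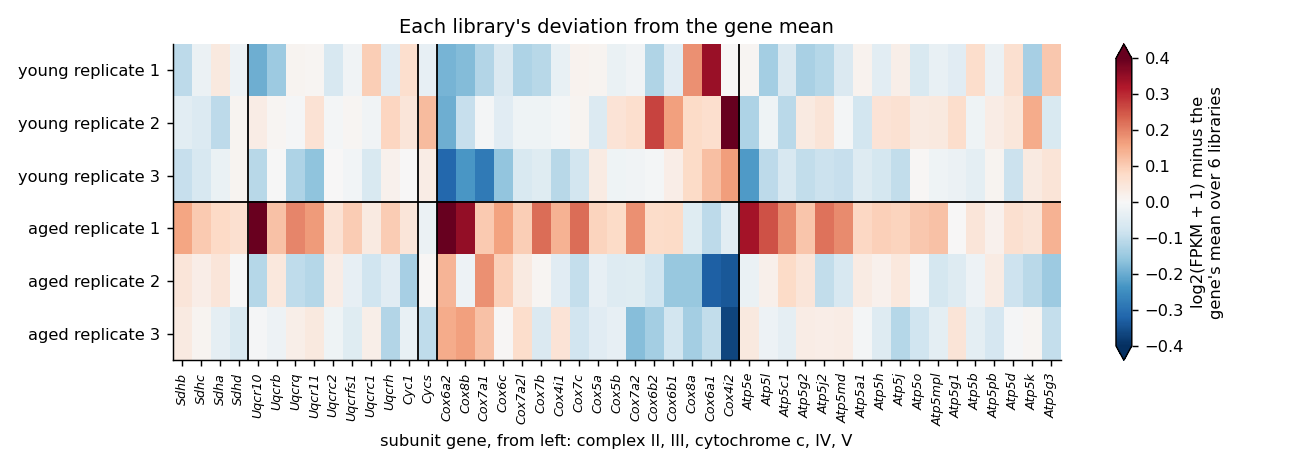
Deviation of each library from the mean over the 6 libraries of the same gene (log2(FPKM + 1), red above and blue below, colours capped at ± 0.4) for the 47 tested subunit genes, in columns grouped by complex II, III, cytochrome c, IV and V. The row of aged replicate 1 is red across all complexes except at genes such as Cox6a1, Cox8a and Cox4i2, while Cox6a2 is red in all 3 aged rows and blue in all 3 young rows.

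Assembly factors, which build the complexes without staying in them, were called higher more often than lower, with Cox15 as the only lower call. Among all tested genes, 9.32% were called higher and 17.1% lower. Of the 6 complex III factors 3 were higher and none lower: Uqcc1 at 61.7 ± 3.47 in young and 78 ± 1.21 FPKM in aged libraries (log2 0.33, adjusted p = 0.00458), Ttc19 at 0.26 and Uqcc2 at 0.19. Of the 4 complex II factors Sdhaf4 and Sdhaf1 were higher (0.39 and 0.29). Atpaf1, which assembles the catalytic head of ATP synthase, was higher among 3 complex V factors, with 55.6, 52.5 and 52.5 FPKM in young and 67.4, 68.9 and 68.1 in aged libraries (log2 0.34, adjusted p = 0.00277). Its groups were each tight and far from overlapping. Leaving out any single library kept the calls of Uqcc1 and Atpaf1, but ended that of Sdhaf4 (young replicate 3), of Ttc19 (young replicate 2 or 3 or aged replicate 2), of Sdhaf1 (young replicate 1 or 3 or aged replicate 1 or 3) and of Uqcc2 (any young replicate or aged replicate 1 or 3), with adjusted p from 0.0546 to 0.17. Against aged replicate 3 alone none of these 6 was called, with adjusted p from 0.052 for Atpaf1 and 0.0827 for Uqcc1 to 0.187 for Ttc19.

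Among 22 tested factors of complex IV assembly and copper delivery, 2 were higher and 1 lower. The shares over all tested genes were 9.32% higher and 17.1% lower. The list's median was 0.11. Cox15, which makes haem a for the enzyme, was lower, with 14.7, 15.1 and 14.7 FPKM in young and 11.1, 10.5 and 10.9 in aged libraries. The groups were well separated (log2 -0.42, adjusted p = 0.0022) and the call held in every alternative that was run. Cox17, the copper chaperone, went from 206 ± 25.4 to 264 ± 15.9 FPKM (log2 0.36, adjusted p = 0.0183) and lost its call without young replicate 3 or aged replicate 1 (0.0674 and 0.0635). Surf1, a factor of early assembly, went from 20.5 ± 0.801 to 25 ± 2.17 (log2 0.27, adjusted p = 0.0307) and lost its call without any young replicate or without aged replicate 1 or 2. Against aged replicate 3 alone neither Cox17 nor Surf1 was called (0.218 and 0.293).

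Complex I, the entry point of electrons from NADH, serves as a comparison. Of 38 genes with complex I symbols 7 were called higher and 1 lower, where 9.32% of all tested genes were higher and 17.1% lower. The median difference was 0.12, against 0.03 for the subunit genes of complexes II to V. Ndufa4, which carries such a symbol and is now counted with complex IV, went from 1751 to 1839 FPKM and was not called (log2 0.07, adjusted p = 0.551). Its paralogue Ndufa4l2, known as a target of the low oxygen response, was the gene called lower, from 38.2 ± 4.94 to 29.7 ± 2.16 (log2 -0.35, adjusted p = 0.03), and without young replicate 2 or 3 or aged replicate 1 or 2 it was not called. Among those called higher, Ndufb4c went from 85.1 ± 17 to 132 ± 10.5 FPKM (log2 0.64, adjusted p = 0.00945), a call kept without any single library and lost against aged replicate 3 alone (0.76, adjusted p = 0.0685). Ndufa3 went from 1023 ± 77.6 to 1292 ± 91.4 FPKM (log2 0.34, adjusted p = 0.0129), a call lost without young replicate 3 (0.0569). Neither Ndufa3 nor Ndufa4l2 was called against aged replicate 3 alone (adjusted p = 0.105 and 0.29). The 2 lists were not compared by a test. Outside the complexes, Atpif1, the inhibitor of ATP synthase, had a mean of 145 FPKM in young and 147 in aged libraries (log2 0.02, adjusted p = 0.893), and Dmac2l, a coupling factor of the enzyme, had a log2 difference of 0.28 and an adjusted p of 0.0393 that was lost without any young replicate, without aged replicate 1 or 2, and without both of these (0.372).

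Genes of mitochondrial mass and of mitochondrial DNA expression gave 2 higher and 1 lower call among 15, with a median of 0.04. The shares over all tested genes were 9.32% higher and 17.1% lower. Cs, citrate synthase, whose activity is a common measure of mitochondrial content, fell from 719 ± 22.5 to 622 ± 19 FPKM (log2 -0.21, adjusted p = 0.0225). Vdac1, a channel of the outer membrane, was higher (0.18) and so was Twnk, the helicase of mitochondrial DNA (0.22). Each of these calls was lost when certain single libraries were left out: young replicate 1 or 3 or aged replicate 2 or 3 for Cs, young replicate 2 or 3 or aged replicate 1 or 2 for Vdac1, and any of the 6 for Twnk. None of the 3 was called against aged replicate 3 alone (adjusted p from 0.081 to 0.284).

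Of 12 transcription regulators known to act on these genes, 2 were higher and 1 lower, where 9.32% of all tested genes were higher and 17.1% lower. The median log2 difference of the 12 was -0.02. The oestrogen-related receptors Esrrg and Esrrb, which bind the AAGGTCA element in genes of oxidative metabolism, were the higher ones. Esrrg had 8.17, 8.06 and 8.29 FPKM in young and 11.3, 11.6 and 12.4 in aged libraries (log2 0.47, adjusted p = 0.00197). Esrrb had 8.9, 8.6 and 7.39 in young and 12.76, 12.03 and 12.48 in aged libraries (log2 0.53, adjusted p = 0.00242). Neither overlapped between ages, and both calls held without any single library. Against aged replicate 3 alone Esrrg stayed called (adjusted p = 0.0298) and Esrrb did not (0.0527). Gabpb1, a subunit of the ETS factor GABP, was lower, from 8.27 ± 0.646 to 6.19 ± 0.176 (log2 -0.36, adjusted p = 0.0114), a call lost without young replicate 3 (0.0544) and against aged replicate 3 alone (0.095).

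Across the 6 libraries, the genes whose levels most resembled a muscle isoform were sought among the 724 tested genes over 100 FPKM, by Pearson's r of log2(FPKM + 1), as a description. Age and library are shared by all points. For Cox6a2 they were Akr1b3 (0.987), Tnni3 (0.986) and Myl2 (0.984), for Cox8b they were the complex I genes Ndufa10 (0.989), Ndufa6 (0.979) and Ndufa13 (0.968), and for Cox7a1 they were Gstp1 (0.944), Macrod1 (0.941) and Dgat2 (0.934). Between the muscle isoforms r was 0.95 for Cox6a2 with Cox8b, 0.823 for Cox6a2 with Cox7a1 and 0.726 for Cox7a1 with Cox8b.

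The 6 called genes were not equally firm under other choices of processing. Of 19 alternatives, Cox6a2 passed the threshold in 18, Cox6a1 in 14, Cox8a in 11, Cox8b and Cox4i2 in 9 each and Cox7a1 in 8. All but Cox7a1 kept their direction in every alternative.

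**Figure D5:**
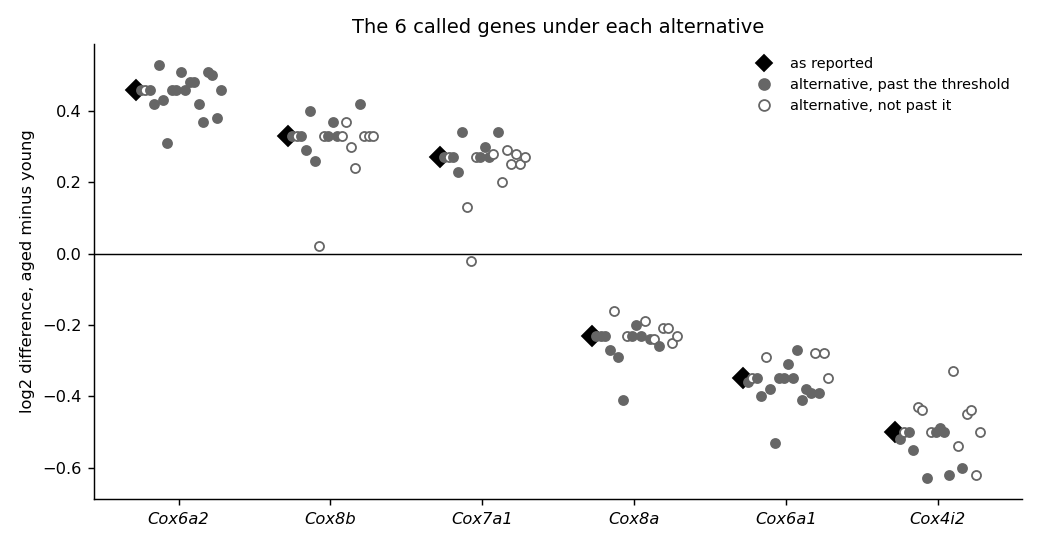
Log2 difference, aged minus young, of the 6 called genes as reported (black diamonds) and under 19 alternatives (filled circles past the threshold, open circles not past it). Cox6a2 stays between 0.31 and 0.53, while Cox8b reaches 0.02 and Cox7a1 reaches -0.02 once the trend on length and GC content is removed.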

How the data were processed

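Total RNA from 6 ventricle samples, 3 per age, was sequenced after poly(A) selection, per the labels' protocols. The authors deposited 1 table of FPKM per gene and library. The submitters' processing notes name RSEM 1.2.12, HISAT2 2.0.4, DESeq2 1.4.5 and Bowtie2 2.2.5, without their roles, and the mm10 build. Annotation, strandedness and the treatment of reads shared between copies are not given in the sources used, so genes with close paralogues or processed copies, which include many respiratory subunit genes, are uncertain to that extent. FPKM carry no read depth, so no depth or counting interval is given. The lowest values, multiplied by transcript length, clustered without exact steps (10.3% to 14.3% of them in the fullest bin of a library), and whole reads were not recovered.

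Groups were taken from the labels. Values were analysed as log2(FPKM + 1) for genes averaging at least 1 FPKM (11860 of 18181), using lmFit and eBayes with a mean trend in limma 3.58.1 (R 4.3.3), without covariates, two-sided, with Benjamini-Hochberg adjustment over all tested genes. Differences are aged minus young on that scale and understate changes of low genes. A gene was called at an adjusted p under 0.05. Isoform ratios were compared by exact permutation of the libraries (Python 3.11.15), where 0.1 is the smallest possible p. Lists are described by counts and medians, with no set test. The code was tested on simulated data.

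Named genes were both forms of each isoform pair, the called subunit genes, the highest and lowest of each complex, the 4 Sdh genes, Cyc1 and Cycs, and from the other lists up to 4 called genes with the largest absolute t. One gene that this rule names is not reported here. Other subunit genes are given to account for the whole set. The gene set and the lists were chosen with earlier results of these data known. Alternatives were another pseudocount (0.1), no filter, a minimum mean of 5 FPKM, TPM, median-of-ratios scaling, quantile normalization, removal of each library's trend on length and GC content (spline, 4 degrees of freedom), other variance priors, library weights, a replicate block, an adjusted p under 0.01 and libraries left out. Coordinates and promoters are from RefSeq GRCm38.p6, in which all 48 genes were found.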

Additional observations from a re-analysis of the deposited data

How the results depend on the processing

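Of the 48 genes, 3 were called higher and 3 lower. The higher count was 0 without a filter on low values, 8 after median-of-ratios scaling, 6 with library quality weights, and 1 each with the length and GC trend removed, with a prior variance without a trend, without aged replicates 1 and 2 together, and at an adjusted p under 0.01; leaving out single libraries gave 1 to 2. The lower count was 1 without a filter, 0 after median-of-ratios scaling, 9 with the length and GC trend removed, 1 with a prior without a trend, 0 without aged replicates 1 and 2 together and 0 at an adjusted p under 0.01, and 0 to 3 when single libraries were left out. Quantile normalization gave 2 higher and 4 lower, the lower ones including Cox6b1 and Cyc1. Over all tested genes, 1105 were higher and 2026 lower as reported, against 1507 and 1505 after median-of-ratios scaling. The log2 difference of the Cox6a2 to Cox6a1 ratio (0.82) was 0.65 against aged replicate 3 alone and 0.75 to 0.90 with single libraries left out, and that of Cox8b to Cox8a (0.56) was 0.44 with the length and GC trend removed. The cause of these shifts was not tested.

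Same-numbered libraries of the ages did not deviate together (r of 0.0413, -0.0795 and 0.0378). Libraries of unlike number gave r from -0.0746 to 0.063. No pairing by number was visible, but 3 libraries per age cannot exclude one. With a replicate block 3 subunit genes were higher and 3 lower, as without it, and calls lost with it included those of Sdhaf1, Ttc19, Uqcc2, Cs, Twnk, Vdac1 and Tnni3.

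Sign changes were confined, among the called subunit genes, to Cox7a1 (-0.02 with the length and GC trend removed). The same correction gave 0.01 for Atp5b, 0.05 for Atp5g1, -0.0016 for Atp5g2, -0.02 for Cox4i1, -0.03 for Sdhd, -0.18 for Uqcr11, -0.10 for Ndufa4, -0.19 for Atpif1 and -0.03 for Uqcc2. Median-of-ratios scaling gave 0.06 for Atp5b, 0.07 for Atp5g1, 0.00063 for Atp5g3 and 0.04 for Cox7a2. Quantile normalization gave -0.05 for Sdha and Sdhd, -0.10 for Uqcr11, -0.0033 for Uqcrq and -0.02 for Ndufa4. TPM gave -0.04 for Sdhd and -0.02 for Atpif1, and library weights gave 0.02 for Atp5b, 0.0048 for Cox7a2 and -0.00096 for Atpif1. Without aged replicates 1 and 2 the difference was 0.05 for Atp5g1, -0.0041 for Sdha, -0.06 for Sdhd and -0.02 for Ndufa4. Leaving out single libraries moved the difference across 0 for some uncalled genes, with ranges of -0.03 to 0.02 for Atp5b, -0.03 to 0.03 for Atp5g1, -0.18 to 0.02 for Cox6b2, -0.12 to 0.05 for Cox7a2, -0.03 to 0.03 for Sdhd, -0.01 to 0.14 for Uqcr11, -0.00063 to 0.15 for Uqcrq, -0.0015 to 0.11 for Ndufa4 and -0.07 to 0.12 for Atpif1. Of the 25 remaining subunit genes, 22 changed sign and 7 were called under at least 1 alternative. With 3 libraries per age, standard errors of 0.0527 to 0.146 on the log2 scale bound what could be seen.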

Other observations

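The 3 subunit genes called higher in aged ventricle, Cox6a2, Cox7a1 and Cox8b, all lie on chromosome 7, which holds 6 of the 48 genes. This was noticed after their values were seen and no test was made. The genes stand far apart on the chromosome (128205435, 30184171 and 140898942 are their first bases in GRCm38), and Cox6b1, whose first base is 30616971 and so is the nearest of the set to Cox7a1, differed by -0.10 and was not called.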
